A study of Homo sapiens with 6 samples.

Results

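The cytosolic ribosomal protein genes encode the proteins of the ribosome that translates messages from the nucleus. They were chosen by name, as protein-coding genes on an autosome or X whose symbol is RPL or RPS with a number, RPLP0, RPLP1, RPLP2 or RPSA, with at least 10 counts summed over all libraries. The rule used no difference between groups. It matched 85 genes, of which 82 had enough counts, out of 19072 genes tested. The libraries were polyA RNA-Seq of MRC5, an established line of human lung fibroblasts, kept for 24 h in conditioned media (CM). The CM came from ATIIER:KRASV12 cells, human alveolar type II (ATII) epithelial cells that carry KRASV12 fused to an oestrogen receptor domain, so that 4-hydroxytamoxifen (4-OHT) switches RAS on. The 3 libraries of control ATII CM came from fibroblasts in CM of donor cells not given 4-OHT, and the 3 libraries of 4-OHT ATII CM from fibroblasts in CM of donor cells given 4-OHT. All fibroblasts were the same line with the same genes, RAS was switched on in the donor cells and not in the fibroblasts, and no library of fibroblasts given 4-OHT alone or fresh medium was analysed here. The labels do not say whether the replicates were separate cultures or separate batches of CM, so p values measure the spread between these libraries, which may be technical.

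A cytosolic ribosome has a large subunit, built with the RPL proteins and carrying the stalk proteins RPLP0, RPLP1 and RPLP2, and a small subunit, built with the RPS proteins and RPSA. Each ribosome holds about equal numbers of nearly all of them, and their mRNAs are among the most abundant in a growing cell. Most of these mRNAs begin with a terminal oligopyrimidine (TOP) tract, a C followed by a run of C and T, through which mTORC1 and LARP1 set how much of the mRNA is translated. That control acts on translation, which polyA RNA-Seq does not measure. A few genes have a second copy with its own pattern of expression, such as *RPL22L1* beside *RPL22*.

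The start sites are shown first because the TOP tract is the feature most of these genes share. RefSeq promoters on GRCh38.p14 were matched by symbol to 66 of the 82 genes. A tract was counted where a run of at least 5 pyrimidines, beginning with C and read on the gene's strand, began within 5 bases of the annotated start. It was found in 51 of the 66 promoters (77.3%), against 22.6% of 12336 promoters of genes tested and 22.1% of 68 promoters of mitochondrial ribosomal protein genes. The windows below hold 40 bases before the start and 10 from it, read 5′ to 3′ on the gene's strand, with the tract in capitals. *RPL22L1* and *RPL22* are shown as a called copy and its parent, which was not called, *RPS14* as the gene nearest to being called higher, and *RPLP0* as the stalk base. *RPS27* and its copy *RPS27L* are shown as a pair of which only *RPS27* has a tract by this rule.
RPL22L1, chr3:170870186-170870235, minus strand: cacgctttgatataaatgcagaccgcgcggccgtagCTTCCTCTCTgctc
RPL22, chr1:6199586-6199635, minus strand: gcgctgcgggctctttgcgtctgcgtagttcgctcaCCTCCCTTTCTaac
RPS14, chr5:150449730-150449779, minus strand: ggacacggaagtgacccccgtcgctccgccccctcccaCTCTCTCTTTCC
RPLP0, chr12:120201102-120201151, minus strand: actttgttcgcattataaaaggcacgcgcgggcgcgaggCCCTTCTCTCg
RPS27, chr1:153990722-153990771, plus strand: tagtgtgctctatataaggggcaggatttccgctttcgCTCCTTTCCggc
RPS27L, chr15:63157468-63157517, minus strand: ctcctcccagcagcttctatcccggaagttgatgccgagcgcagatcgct
Other short motifs were searched on both strands of the 300 bases from 250 before the start to 50 after it. The ETS-type motif CCGGAAG was in 33.3% of the 66 promoters, against 17.9% of promoters of genes tested and 42.7% of the mitochondrial ribosomal protein promoters. The YY1-type motif AAGATGGC was in 10.6% against 4.90% and 27.9% in the same order, and, against promoters of genes tested, the TATA box TATAAA in 9.09% against 6.14% and the E-box CACGTG in 6.06% against 9.67%. CCGGAAG ends with the AAG that AAGATGGC begins with, so a match of the one can overlap a match of the other, and a match is a description of the sequence.

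Library totals ranged from 17691849 to 26389449 counts, and the ribosomal protein genes held 4.51% to 4.77% of them. All 8 fibroblast markers were detected, with *COL1A1* at 297378 to 440792 counts, and 3 of them were called higher (*DCN*, *LUM* and *COL3A1*) and 1 lower (*VIM*), against 5.72% of all genes. Without control replicate 2, 3 were called higher and 3 lower, against 8.19% of all genes. The part of these calls in the results was not tested. Of 10 epithelial markers, *ESRP1* and *NKX2-1* had no count, and *CDH1*, *SFTPC* and *SFTPB* had 4, 1 and 1 counts over all libraries. The 5 that could be tested, all with a log2 fold change below 0 and 0 called, summed to 10.4, 12.4 and 10.9 CPM (TMM-normalized counts) in control and 9.96, 9.42 and 9.44 CPM in 4-OHT ATII CM, lower in every 4-OHT library. Their median was -0.20, and without control replicate 2 it was -0.12, with 1 above 0, 4 below and 0 called. The part of these markers in the results was not tested. Control replicate 2 had a trend with gene length, described below, and the main counts are given with and without it. Control replicate 1 had a trend nearly as strong in the opposite direction (Spearman's rho with length 0.29, against -0.31 in control replicate 2).

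The comparison of 4-OHT ATII CM with control ATII CM asked how the fibroblasts responded to CM of RAS-activated ATII cells. The ribosomal protein mRNAs were close to their control level in nearly every case. Of the 82 genes, 2 were downregulated (*RPL22L1* and *RPS2*) and 0 were upregulated in edgeR's quasi-likelihood test at a Benjamini-Hochberg adjusted p below 0.05. That is 2.44% of them, against 5.72% of all genes tested (2.95% higher and 2.76% lower). At an unadjusted p below 0.05 the test had 7 higher and 4 lower, 13.4% against 17.3% of all genes. limma-voom called 1 higher and DESeq2 called 0. The log2 fold change was above 0 for 42 genes and below 0 for 40, with a median of 0.00089 (quartiles -0.024 and 0.029), while over all genes the median was -0.0020 (quartiles -0.12 and 0.12). The values of the groups did not overlap for 10 genes, 6 higher and 4 lower, which is 12.2% against 22.1% of all genes.

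**Figure D1:**
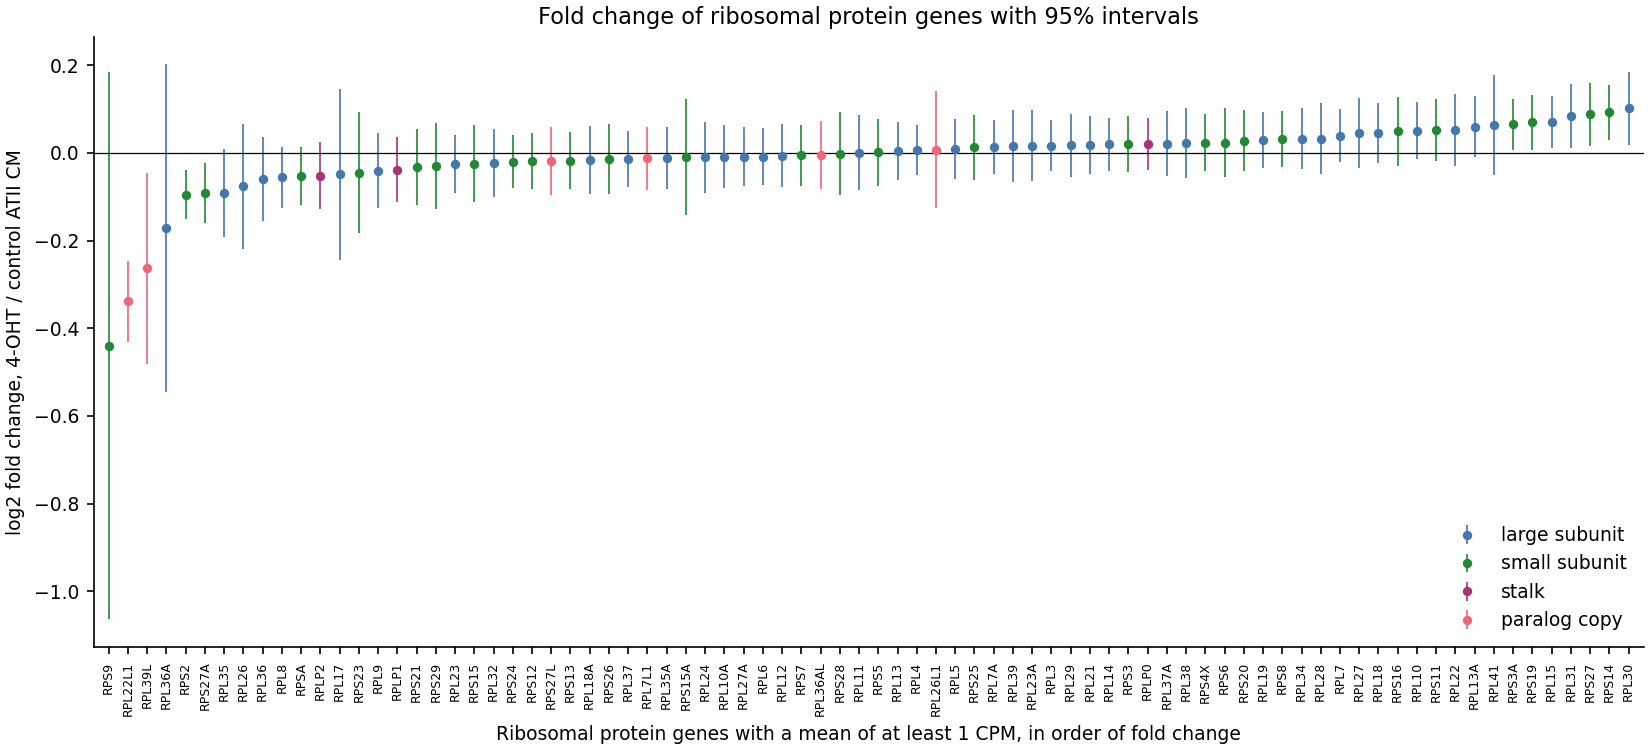
Log2 fold change (vertical axis, 4-OHT over control ATII CM) of each ribosomal protein gene with a mean of at least 1 CPM, in rising order along the horizontal axis, with bars for 95% intervals and colours for the kind of protein (3 libraries a group). Most points lie within 0.10 of 0, and *RPL22L1* at -0.34 and *RPS2* at -0.095 are the genes whose adjusted p is below 0.05.

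Because these mRNAs are abundant, small changes could be measured. There were 73 genes with at least 1000 counts in each library, and the median standard error of their log2 fold change was 0.034. *RPL22L1* (log2 fold change -0.34) had 979 counts in control replicate 2 and 949 in 4-OHT replicate 1. It is therefore not among the 73, nor in their range and share called. The log2 fold changes of the 73 ran from -0.095 to 0.10, and the outermost bounds of their 95% intervals were -0.19 for *RPL35* and 0.19 for *RPL30*. Among the 3503 other genes with as many counts, 14.3% were called, 275 higher and 227 lower, whereas among these 73 genes 1 was called (1.37%). Without control replicate 2 the same 73 genes had 4 called higher and 1 lower (6.85%), and the 3503 others 386 and 419 (23%). The median size of the log2 fold change was 0.024 for the ribosomal protein genes and 0.058 for the others, and 0.031 and 0.060 without that library. For 62 of the 82 genes the 95% interval lay within a 1.1-fold change in either direction, and for 76 it lay within 0.32 of 0 on the log2 scale.

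The summed level shows the same for the whole set. It was 45088, 47266 and 46395 CPM in the control libraries and 45913, 47252 and 46539 CPM in the 4-OHT libraries. The groups overlapped, the means were 46250 ± 1096 and 46568 ± 670 CPM (SD, n = 3), and the difference of 318 CPM was smaller than either SD. It was 827 CPM without control replicate 2 and 646 CPM without 4-OHT replicate 1, and it turned to -263 CPM without control replicate 1 and to -23.8 CPM without 4-OHT replicate 2. The 43 large subunit genes summed to 27099 ± 656 CPM in control and 27387 ± 396 CPM in 4-OHT ATII CM, and the 30 small subunit genes to 15752 ± 378 and 15821 ± 248 CPM. In bulk RNA, fewer cells of a type and less RNA per cell cannot be told apart, and a level relative to the library total would not show a change shared by all mRNAs.

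**Figure D2:**
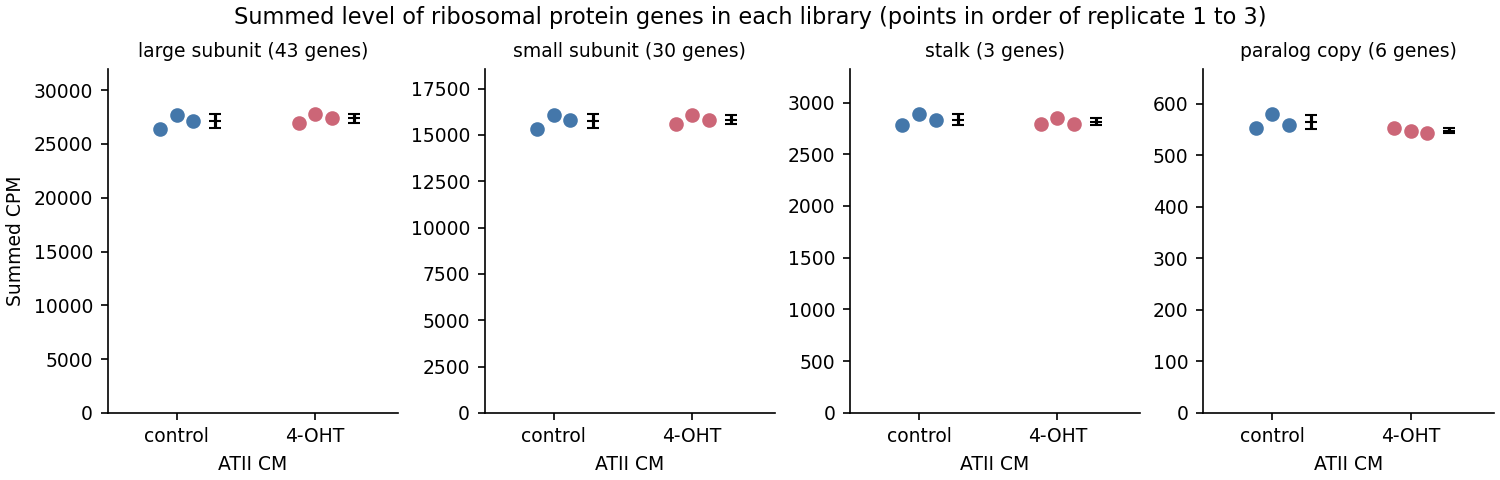
Summed CPM (vertical axis, from 0) of large subunit, small subunit, stalk and paralog copy genes in each of the 3 control and 3 4-OHT ATII CM libraries, with the mean and SD beside the points. In the large and small subunit panels the groups overlap, and control replicate 2 is the highest control point in all 4 panels.

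*RPL22L1* had the clearest change. It encodes a paralog of the large subunit protein RPL22 that can stand in for it in the ribosome, and both are RNA-binding proteins. The gene (ENSG00000163584) lies at chr3:170864875-170870483 on the minus strand of GRCh38, and its exons are overlapped by no other gene on either strand. Its level was 53.1, 54.8 and 54.5 CPM in control and 43.3, 44.2 and 41.0 CPM in 4-OHT ATII CM. Every 4-OHT library was below every control library, and the gap between the groups was several times the spread within them. The means were 54.1 ± 0.895 and 42.8 ± 1.65 CPM (SD, n = 3), the change was -20.9%, and the log2 fold change was -0.34 with a standard error of 0.044 (edgeR adjusted p = 0.000218). It passed the threshold in 18 of 18 alternative analyses, with log2 fold changes from -0.36 to -0.31 and adjusted p values from 9e-10 to 0.00273.

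*RPL22*, the parent gene at chr1:6185020-6209389, was not called. Its level was 128, 124 and 134 CPM in control and 132, 134 and 134 CPM in 4-OHT ATII CM, which overlap. Its log2 fold change was 0.053 with a 95% interval from -0.029 to 0.14 (edgeR adjusted p = 0.539). As a share of *RPL22* counts, *RPL22L1* counts were 41.5%, 44.4% and 40.6% in control and 32.9%, 32.8% and 30.5% in 4-OHT ATII CM. This share, which is within a library and so does not depend on how libraries are scaled, was lower in all 3 4-OHT libraries. Its means were 42.1 ± 1.98% and 32.1 ± 1.38% (SD, n = 3). The share was given no test of its own.

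**Figure D3:**
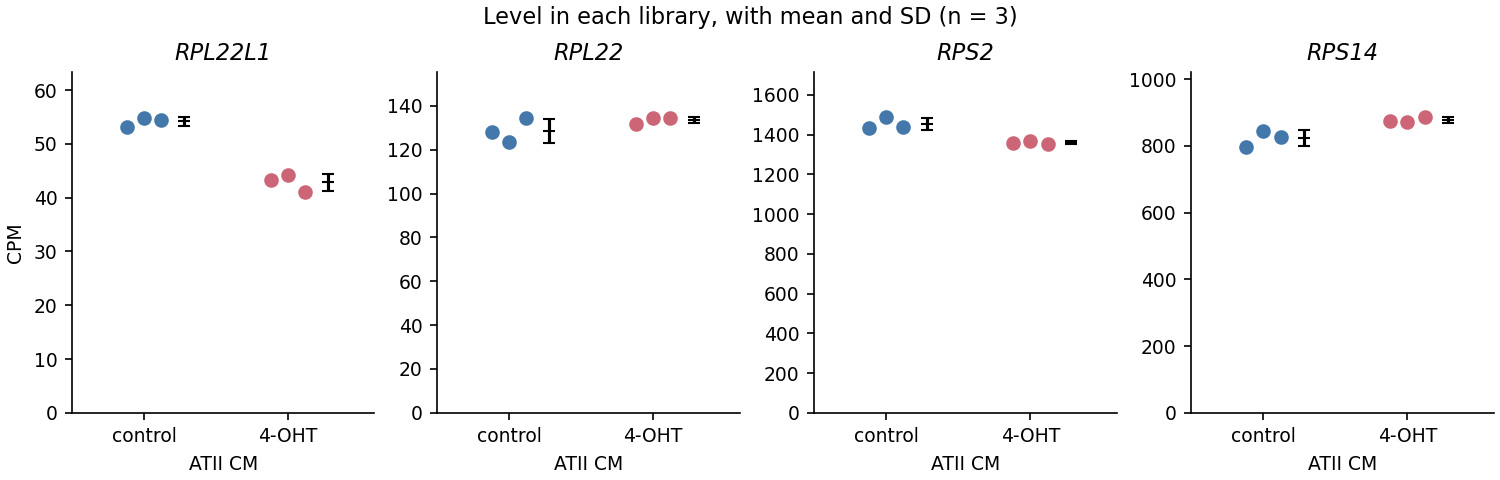
CPM (vertical axes, from 0) of *RPL22L1*, *RPL22*, *RPS2* and *RPS14* in each control and 4-OHT ATII CM library, with the mean and SD (n = 3) beside the points. *RPL22L1* fell from a mean of 54.1 to 42.8 CPM, *RPL22* overlaps between groups, *RPS2* decreased by 6.40%, and *RPS14* was 6.65% higher without passing the test.

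*RPS2* encodes a small subunit protein near the entry of the mRNA channel. Its level was 1434, 1491 and 1437 CPM in control and 1359, 1369 and 1355 CPM in 4-OHT ATII CM, so the groups did not overlap. It decreased by 6.40%, with a log2 fold change of -0.095, a standard error of 0.026 and an edgeR adjusted p of 0.0453, just past the threshold. In 9 of 18 alternatives it did not pass, with adjusted p values from 0.013 to 0.198 over all of them. The omission of control replicate 1 or 3, or of any one 4-OHT replicate, ended the call (adjusted p = 0.0518, 0.0718, 0.163, 0.108 and 0.198 in that order). The gene lies at chr16:1962052-1964860 on the minus strand, and 25.6% of its exon bases are shared on that strand with other annotated genes, among them *SNORA10* and *SNORA64*. It has 6 near-identical pseudogenes, and reads that fit several copies may have been divided among them or left out. A pseudogene named for it, *RPS2P5*, singled out after its values were seen, was at 282, 341 and 269 CPM in control and 295, 285 and 293 CPM in 4-OHT ATII CM, which overlap (edgeR adjusted p = 0.866).

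*RPS14*, a small subunit protein gene within the region lost in 5q- syndrome, was nearest to a call on the higher side. Its level was 797, 844 and 828 CPM in control and 875, 870 and 888 CPM in 4-OHT ATII CM, without overlap. The log2 fold change was 0.093 with a standard error of 0.030, and the edgeR adjusted p of 0.0854 did not pass. Its exons are overlapped by no other gene. No near-identical copy was found, but the search required a match over 50% of its reference transcript of 2146 bases. A shorter copy would not have been counted, so reads shared with one are not excluded. *RPL30*, a large subunit gene with an antisense gene over 21.6% of its exon bases, was at 311, 347 and 317 CPM in control and at 342, 355 and 348 CPM in 4-OHT ATII CM. Here control replicate 2 lay within the 4-OHT range, and the log2 fold change of 0.10 did not pass (standard error 0.039, edgeR adjusted p = 0.177). *RPS27* was at 660, 673 and 683 CPM in control and 690, 750 and 703 CPM in 4-OHT ATII CM, without overlap (log2 fold change 0.088, edgeR adjusted p = 0.170). *RPS14* passed the threshold in 4 of the 18 alternatives, *RPL30* in 3 and *RPS27* in 0.

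Besides the called genes and the 3 above, *RPS27A*, *RPL31*, *RPL15*, *RPS19*, *RPS3A* and *RPL39L* had an unadjusted p below 0.05 (all but *RPL39L* are named because of their values). *RPS27A*, which encodes ubiquitin fused to a small subunit protein, was at 532, 533 and 547 CPM in control and 507, 520 and 486 CPM in 4-OHT ATII CM. Its groups did not overlap, and the log2 fold change of -0.092 did not pass (edgeR adjusted p = 0.129). The remaining 4 of the large and small subunits had log2 fold changes from 0.065 for *RPS3A* to 0.084 for *RPL31*, with edgeR adjusted p values from 0.189 to 0.231. All 4 were without overlap between groups.

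By the place of the protein in the ribosome, the 43 large subunit genes had a median log2 fold change of 0.015, with 26 above 0, 17 below and 0 called, and without control replicate 2 one of 0.021, with 33 above, 10 below and 3 called higher (all genes 5.72% with and 8.19% without that library, the latter with 3.73% higher). The 30 small subunit genes had a median of -0.0032, with 14 above 0, 16 below and 1 called, and without control replicate 2 they turned to a median of 0.031, with 18 above, 12 below and 1 called in each direction. The 3 stalk genes had a median of -0.038 with 1 above 0, and without control replicate 2 one of 0.0024 with 2 above 0, with 0 called in both. *RPLP0*, the base of the stalk, was at 1357, 1365 and 1428 CPM in control and 1392, 1417 and 1400 CPM in 4-OHT ATII CM. *RPLP1* and *RPLP2*, which form the tips that draw elongation factors to the ribosome, had log2 fold changes of -0.038 and -0.051, with 95% intervals from -0.11 to 0.035 and from -0.13 to 0.025. All 3 overlapped between groups.

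*RPL5*, *RPL11* and *RPSA*, whose proteins have known roles outside the ribosome, had intervals that held 0. *RPL5* and *RPL11* encode the proteins that, with 5S rRNA, bind MDM2 when ribosome assembly is disturbed. *RPL5* was at 733, 780 and 722 CPM in control and 745, 752 and 752 CPM in 4-OHT ATII CM (log2 fold change 0.0095, 95% interval -0.059 to 0.078). *RPL11* was at 639, 724 and 650 CPM in control and 679, 665 and 669 CPM in 4-OHT ATII CM (log2 fold change 0.00064, 95% interval -0.085 to 0.086). In both genes control replicate 2 was the highest of the 6 libraries, and without it their log2 fold changes were 0.044 and 0.059, which did not pass. *RPSA*, the small subunit protein also known as a laminin receptor, was at 1038, 1092 and 1083 CPM in control and 1029, 1065 and 1003 CPM in 4-OHT ATII CM. Its groups overlapped and its log2 fold change of -0.053 did not pass (edgeR adjusted p = 0.424).

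The 6 paralog copies with enough counts had 1 log2 fold change above 0 and 5 below (median -0.015), and *RPL22L1* was the 1 called, against 5.72% of all genes. Without control replicate 2 the lean turned to 4 above and 2 below (median 0.0060), with 1 called lower, against 8.19% of all genes called (4.46% lower). *RPL39L*, a copy of *RPL39* known from testis and from cancer cells, was at 6.98, 7.84 and 7.63 CPM in control and 6.39, 6.10 and 6.20 CPM in 4-OHT ATII CM. Its groups did not overlap, and the log2 fold change of -0.26 with a standard error of 0.10 did not pass (edgeR adjusted p = 0.178). Its parent *RPL39* had a log2 fold change of 0.016 with a 95% interval from -0.065 to 0.097. The copies *RPL7L1*, *RPL26L1*, *RPL36AL* and *RPS27L*, the last of which is a known p53 target, had log2 fold changes from -0.018 to 0.0076, and all 4 overlapped between groups. Of their parents, *RPL7* was at 0.039, *RPL26* at -0.076, *RPL36A* at -0.17 and *RPS27* at the 0.088 given above, none of which passed. *RPL3L* and *RPL10L*, copies known from muscle and testis, had 8 and 0 counts over all libraries and were not tested.

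Levels of different genes can be set side by side only per length. Per kilobase of the MANE transcript (the reference transcript of each gene), *RPS27* was the highest at 1970 CPM, followed by *RPL13A* at 1613 and *RPS2* at 1489. The order depends on the length used. Per kilobase of merged exons, *RPL13A* was the highest at 767 CPM, followed by *RPS12* at 678 and *RPS27* at 670. As means over all 6 libraries, *RPL22L1* was at 25.5 and *RPL22* at 63.6 CPM per kilobase, and the copy was at 40.2% of its parent, with the difference between groups given above. The MANE transcripts of *RPL14* and *RPL37* are 7136 and 7573 bases long, and their 74.2 and 79.3 CPM per kilobase depend on that choice of transcript. Among the least abundant, *RPS10* was at 1.41 and *RPS9* at 1.88 CPM per kilobase.

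Several genes with few counts overlap other genes or have copies elsewhere, though for *RPL39L*, with 917 counts, neither was found. *RPS10* had 112 counts over all libraries and *RPS9* 178, and *RPS18*, below the minimum, had 7. *RPS9* has copies on 9 alternate contigs of GRCh38 and *RPS18* on 4. The gene *RPS10-NUDT3* covers 39.4% of the exon bases of *RPS10*, *RPL17-C18orf32* with 3 snoRNA genes covers 32.7% of *RPL17*, and *RPL36A-HNRNPH2* covers 8.40% of *RPL36A*. *RPS7*, with copies on alternate contigs, was nonetheless at 409 CPM in 4-OHT ATII CM, and how the counting treated such reads was not tested. *RPS9* was at 1.69, 1.12 and 1.76 CPM in control and 1.74, 0.882 and 0.837 CPM in 4-OHT ATII CM. These overlap, and its log2 fold change of -0.44 has a 95% interval from -1.06 to 0.19. *RPS10* had 17, 15 and 23 counts in control and 17, 16 and 24 in 4-OHT ATII CM, which overlap, and its log2 fold change of -0.19 has a 95% interval from -0.77 to 0.40. Just outside the minimum of 10 counts lay *RPL3L* with 8.

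Control replicate 2 was checked for its trend with gene length, because most ribosomal protein mRNAs are short. Their MANE transcripts had a median of 827 bases, with 46 of 82 under 1000 bases, against a median of 3369 bases over 13673 protein-coding genes tested. As a deviation of log2 CPM from the mean of the 6 libraries, protein-coding genes under 1000 bases were at a median of 0.051 in control replicate 2, and those over 8000 bases at -0.081. In control replicates 1 and 3 the order was the opposite for the longest genes (0.076 and 0.060), and the 3 4-OHT libraries stayed between -0.026 and 0.0085 in every class. Across 9691 genes, which are not independent replicates, Spearman's rho of the deviation with merged exon length was -0.31 in control replicate 2, 0.29 and 0.15 in control replicates 1 and 3, and between -0.052 and -0.025 in the 4-OHT libraries.

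In control replicate 2 the ribosomal protein genes deviated to the same side as other short genes. Their median deviation was 0.031 in control replicate 2, -0.039 in control replicate 1 and 0.0025 in control replicate 3, and -0.023, 0.024 and 0.0072 in the 4-OHT libraries. Control replicate 2 was the highest of the 3 controls for 47 genes and the lowest for 11, and it was the highest of all 6 libraries for 34. Among the 73 with at least 1000 counts, Spearman's rho of the deviation with MANE length was -0.13 in control replicate 2, 0.056 and 0.026 in control replicates 1 and 3, and 0.15, -0.022 and 0.035 in the 4-OHT libraries, so within the set it was no larger in control replicate 2 than in 4-OHT replicate 1. An offset fitted in each library on GC content and length lowered the deviation in control replicate 2 to 0.016, and it left 0.021 in 4-OHT replicate 2 and -0.024 in control replicate 1. With that offset the same 2 genes were called and the median log2 fold change was 0.0015.

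**Figure D4:**
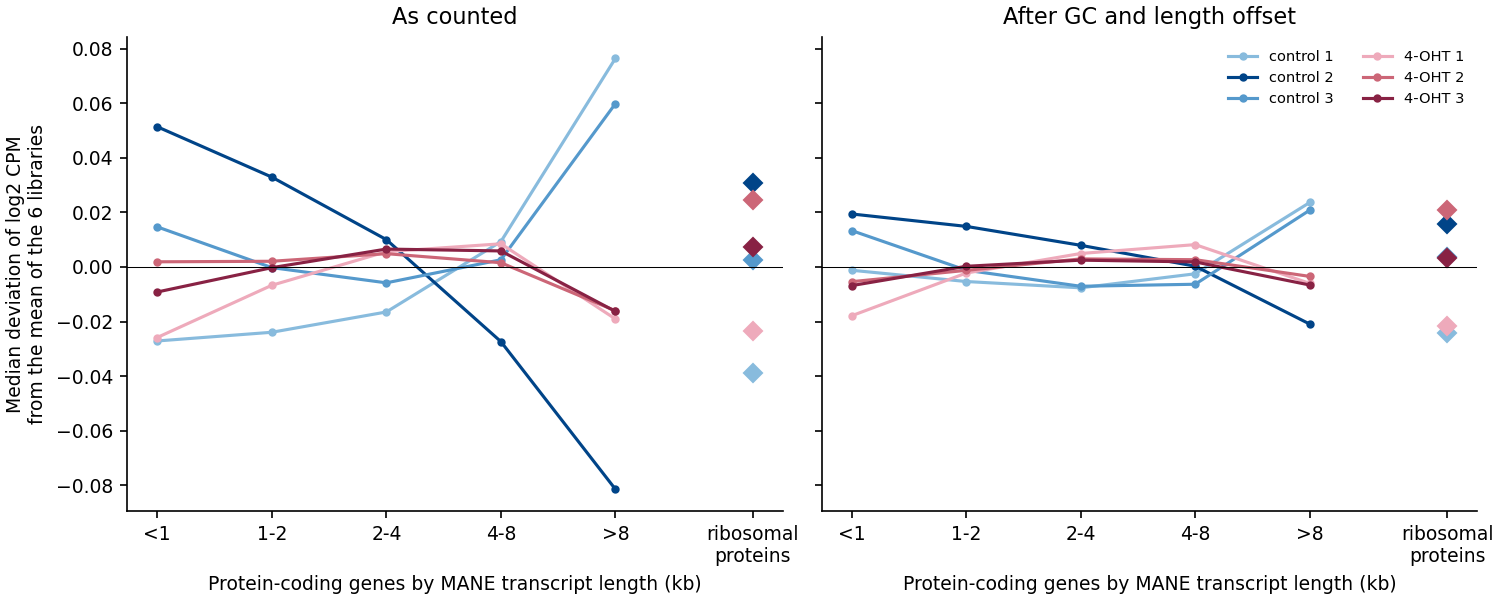
Median deviation of log2 CPM from the mean of the 6 libraries (vertical axis) for protein-coding genes in classes of MANE transcript length (horizontal axis, kb) as lines, and for the 82 ribosomal protein genes as diamonds, before and after an offset for GC content and length. Before the offset control replicate 2 runs from 0.051 in the shortest class to -0.081 in the longest, and its ribosomal protein genes are at 0.031.

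The omission of control replicate 2 moved the counts. Without it 4 ribosomal protein genes were upregulated (*RPL31*, *RPS14*, *RPL30* and *RPL13A*) and the same 2 downregulated. All genes were then called at 8.19% (3.73% higher and 4.46% lower). The log2 fold change was above 0 for 57 of the 82 and below 0 for 25, with a median of 0.020, and the difference in summed level was 827 CPM in place of 318. In that analysis *RPS14* had a log2 fold change of 0.11 (edgeR adjusted p = 0.00795) and *RPL30* of 0.15 (edgeR adjusted p = 0.00235). With the offset as well, *RPL15* joined the upregulated genes and *RPS27A* the downregulated ones, for 5 and 3, against 8.52% of all genes (4.43% higher and 4.08% lower), and the median was 0.013. Whether the trend in control replicate 2 contributes to these counts was not tested further. When control replicate 1 was left out instead, 0 ribosomal protein genes were upregulated and 1 was downregulated (*RPL22L1*). The median was then -0.022, and 799 of 18551 genes tested were called.

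Other genes of translation, from lists chosen with earlier results of these data known, are given beside them, with no test of a difference between lists. Of the ribosomal proteins outside the naming rule, *FAU* and *RACK1* had log2 fold changes of 0.015 and 0.0022, with 0 called. Of 17 genes tested from a list of other mRNAs known as TOP mRNAs, *FAU* and *RACK1* among them, 2 were higher and 1 lower, with a median of 0.0039, against calls of 5.72% of all genes and 14.3% of those with at least 1000 counts. Without control replicate 2 the calls were 2 and 1 and the median 0.031, with *FAU* and *RACK1* at 0.041 and 0.031. *TPT1*, a very abundant TOP mRNA, rose from 1405 ± 17.5 to 1582 ± 36.1 CPM (log2 fold change 0.17, edgeR adjusted p = 0.0011). *EEF1A1*, the main elongation factor that brings tRNA to the ribosome, rose from 11715 ± 137 to 12654 ± 310 CPM (log2 fold change 0.11, edgeR adjusted p = 0.00495). *HNRNPA1*, a splicing factor with a TOP mRNA, fell from 780 ± 8.27 to 698 ± 3.16 CPM (log2 fold change -0.16, edgeR adjusted p = 0.00207). The values are means ± SD (n = 3), and the calls went in both directions.

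Of 48 initiation factor genes, 19 were above 0 and 29 below, 0 were called higher and 4 lower (*EIF6*, *EIF5A*, *EIF3B* and *EIF4A1*), with a median of -0.027. Of all genes 2.95% were called higher and 2.76% lower, and 14.3% of other genes with at least 1000 counts were called in either direction. Without control replicate 2 the initiation factor genes had 0 called higher and 7 lower, against 3.73% higher and 4.46% lower of all genes, with a median of -0.0098. *EIF6*, which keeps the large subunit from joining until it is mature, fell from 75.9 ± 2.56 to 64.9 ± 1.55 CPM (n = 3, log2 fold change -0.23, edgeR adjusted p = 0.00308) and passed in 18 of 18 alternatives. Another annotated gene on the same strand overlaps 17.4% of its exon bases. *EIF5A*, which helps the ribosome through stalls and is in the elongation list too, had a log2 fold change of -0.17 (edgeR adjusted p = 0.0323), and of -0.11 without control replicate 2. *EIF3B*, a subunit of the factor that binds the small subunit, had a log2 fold change of -0.14 (edgeR adjusted p = 0.0365). *EIF4A1*, the helicase of the cap-binding complex, is overlapped over 48.6% of its exon bases by *SENP3-EIF4A1* and other genes, and its 8.08 and 5.98 CPM are uncertain for that reason (log2 fold change -0.43, edgeR adjusted p = 0.0433). *EIF5A*, *EIF3B* and *EIF4A1* passed in 15, 10 and 12 of 18 alternatives. Of 9 elongation factor genes 1 was called higher and 1 lower, of 17 genes of mTORC1 control 0 were called (1 higher and 1 lower of 16 without control replicate 2), and of 8 chaperones of ribosomal proteins 0 were called and 8 were below 0, with a median of -0.050 (-0.021 and 7 below 0 without control replicate 2).

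The mitochondrial ribosomal protein genes, which encode the ribosome of another compartment, are of similar number. Of 77 tested, 19 were above 0 and 58 below, with a median of -0.044 and 1 called lower, against 2.76% of all genes called lower. The called gene, *MRPL41*, was at 47.2, 51.1 and 50.5 CPM in control and 43.4, 45.1 and 43.8 CPM in 4-OHT ATII CM, without overlap (log2 fold change -0.17, edgeR adjusted p = 0.0389). It passed in 11 of 18 alternatives. The median deviation of the mitochondrial set in control replicate 2 was 0.054, and without that library 25 were above 0 and 52 below, with a median of -0.030. In that analysis 2 were called lower, against 4.46% of all genes called lower, and neither was *MRPL41* (edgeR adjusted p = 0.0622). The cytosolic set had no such lean with all libraries, at 42 above and 40 below, but leaned to the higher side without control replicate 2, as given above. A difference between the cytosolic and the mitochondrial set was not tested.

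**Figure D5:**
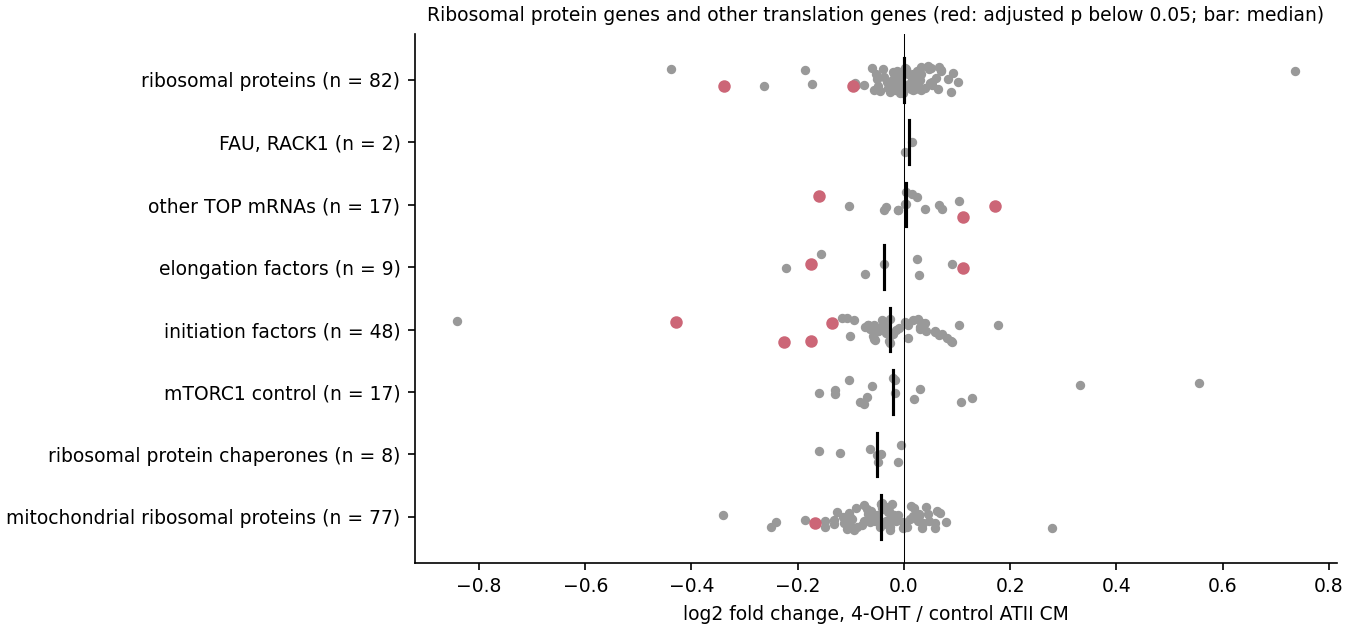
Log2 fold change (horizontal axis, 4-OHT over control ATII CM) of single genes in each list of translation genes (rows, with the number tested), with called genes in red and the median of each list as a bar. The bar of the ribosomal protein genes is at 0.00089 and that of the mitochondrial ribosomal protein genes at -0.044.

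By the tract at the start site, the 51 genes with a TOP tract in the RefSeq promoter had a median log2 fold change of 0.0065 with 1 called (*RPL22L1*), the 15 without one -0.012 with 0 called, and the 16 with no promoter entry 0.0053 with 1 called (*RPS2*), with no test between these groups. Of all genes, 5.72% were called. Of the 82 genes, 28 hold a snoRNA gene within them, and these had a median of 0.0080 against -0.0027 for the rest. For the 40 with a near-identical gene elsewhere, the median was 0.0013, against 0.00089 for the other 42. Copies much shorter than the transcript were not counted, so the other 42 may include genes that have such copies.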

How the data were processed

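The table that the authors deposited gives unnormalized counts per gene in 1 column per library, made by read trimming (Trim Galore), alignment to GRCh38 (HISAT2 2.1.0) and counting (featureCounts 1.6.5). The annotation release, strand setting and treatment of multi-mapping reads are not given in the sources used here. The deposited table also holds the merged exon length of each gene, in bases. Its 58721 lines hold 58676 gene identifiers, since the 45 listed on both X and Y were added together, and GENCODE 44 named 58207.

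For genes of at least 10 summed counts, edgeR 4.0.16 under R 4.3.3 gave TMM factors and a quasi-likelihood test of group with no other term, and p values were adjusted by Benjamini-Hochberg over all 19072 genes with a threshold of 0.05. The analysis was tested on simulated data. Named genes are all called ones, the 3 highest and 3 lowest in fold change among those with at least 1 CPM, the most and least abundant per kilobase, *RPLP0*, *RPLP1*, *RPLP2*, *RPSA*, *RPL5*, *RPL11*, each paralog copy with its parent, and *FAU*, *RACK1* and called genes of the other lists, and any other gene was named after its values were seen. Results of some genes under this rule are not reported here. The members and lists were chosen with earlier results of these data known. Alternatives were DESeq2 1.42.0, limma-voom (limma 3.58.1), other normalizations and filters, an offset for GC content and length (splines with 5 degrees of freedom), a replicate block and the omission of each library. Same-numbered libraries of the groups did not deviate together. Copies were called near-identical at 95% identity over 50% of the transcript, and as alternate-contig copies at 98% over 90%, on 261 contigs. The common dispersion had a square root of 4.36%, so abundant genes are limited by replicate spread and genes of few counts by counting.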

Additional observations from a re-analysis of the deposited data

How the results depend on the processing

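*RPL22L1* was called lower in every one of 18 alternatives, and no called gene reversed direction. The number of ribosomal protein genes called higher, 0, was 1 with limma-voom (*RPS14*), 2 without a filter (*RPS14* and *RPL30*), and 5 without control replicate 2 and with the GC and length offset, an alternative chosen after seeing the data. With one library left out it ranged from 0 to 4, the 4 being without control replicate 2. The number called lower, 2, was 1 with upper-quartile normalization and 1 without a filter, in each case because *RPS2* did not pass (adjusted p = 0.0626 and 0.0839), and it ranged from 1 to 2 with one library left out. The median log2 fold change ranged from -0.022 to 0.020 with one library left out, and the difference in summed level from -263 to 827 CPM. Of the tests of named genes, 34 lost a call under an alternative and 7 gained one; the cause was not tested.

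With a replicate block the number called lower was 1, and with the block and the GC and length offset 1, since *RPS2* had an adjusted p of 0.0502 and 0.0696. The block gave 985 calls over all genes in place of 1090. Libraries of the same number correlated in their deviations at -0.014, -0.10 and -0.093 over 9691 genes. This does not settle whether the numbers pair them, since deviations from means of 3 libraries also carry each library's trend with length.

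*EEF1A1* lost its call without 4-OHT replicate 3 (adjusted p = 0.0665), *EIF5A* without any one 4-OHT replicate (0.0723 to 0.169), *EIF3B* without control replicate 3 or any one 4-OHT replicate (0.0605 to 0.165), with the block (0.0652), the offset (0.0805), both (0.133) and the offset without control replicate 2 (0.156), *EIF4A1* without control replicate 1 or 3 or any one 4-OHT replicate (0.0571 to 0.161) and with DESeq2 (0.0581), and *MRPL41* without control replicate 2 or 3 or any one 4-OHT replicate (0.0622 to 0.144), as well as with DESeq2 (0.0815) and with the block and offset (0.0582). *RPS10*, *RPS9* and *RPL36A* have few counts, so their intervals are wide.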

Other observations

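The table lists 1599 annotated pseudogenes named after these ribosomal protein genes, and 188 had enough counts to be tested. Together they held 0.164% of the counts and summed to 1568, 1712 and 1611 CPM in control and 1624, 1677 and 1639 CPM in 4-OHT ATII CM, with control replicate 2 the highest of the 6 libraries. None of the 188 was called in edgeR's quasi-likelihood test with Benjamini-Hochberg adjustment, against 5.72% of all genes. Of these pseudogenes 86 were above 0 and 102 below, and the median log2 fold change was -0.023. Without control replicate 2, 172 were tested, 102 were above 0 and 70 below, the median was 0.043 and 1 was called higher, against 8.19% of all genes called (3.73% higher).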
